A study of Arabidopsis thaliana with 9 samples.

Results

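Membrane transporters and aquaporins move ions, sugars, nutrients and water across the membranes of plant cells. Genes of 27 families were looked for among the probe sets of 9 Affymetrix ATH1 arrays, and a member was a probe set of 1 gene whose symbol is a family name followed directly by a number. The families searched were the ABC transporters ABCA to ABCI with the older names MRP, PDR and PGP, and the aquaporins PIP and TIP. The search also took in the nitrate, ammonium, phosphate and sulfate transporters NRT, AMT, PHT and SULTR and the sugar transporters STP and SUC. The amino acid permeases AAP and the ion carriers, channels and pumps CAX, ZIP, HMA, AHA, AKT and KUP made up the rest. The annotation used here gave such a symbol to 3 of 22810 probe sets, those of ZIP6, ZIP9 and NRT2.5. A filter on low values, which asked for a value at or above the 40th percentile of the array on at least 3 of the 9 arrays, kept ZIP6 and ZIP9, so the members were 2 of 14404 probe sets tested. No probe set was named as an aquaporin, and 25 of the 27 families had none at all, so the data described here are those of 2 metal transporters and not of transporters and aquaporins at large.

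The scarcity lies in the annotation. Of the 22746 probe sets other than controls, 13513 had 1 gene in the annotation, and for 11933 of these the symbol was only a locus code. Another 503 had several genes and 8730 were unnamed here. A gene table of the Arabidopsis assembly TAIR10.1 lists 261 genes with a symbol of the searched form, lipid kinases of the PIP5K kind among them, and taking its symbols in place of the annotation's gave the same members. Of the 13513, 13436 were matched to this table, so the locus codes hid no further member by symbol among those matched.

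The plants were Arabidopsis thaliana lines iae1, iae2 and B1798, all in the Ler ecotype, with 3 arrays per line. RNA came from crown, hypocotyl, cotyledons and the bud of the apical meristem together, at growth stage 1.0, with 1% sucrose as the nutrient. A pool of 30 plants is given for the series, and the labels give no age in days, no treatment and no driver or insertion for any line. The study asked what lies, genetically, behind the phenotypes of iae1 and iae2. B1798 stands as the line compared with because it has no iae name, and the labels do not describe it as a control. Separate cultures are not stated for the arrays of a line, so a p-value here reflects only how far these samples scatter, and that scatter may be technical. The tissue is a mixture, in which fewer cells of a type and less RNA per cell cannot be told apart.

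The ZIP family takes its name from yeast and plant carriers that bring zinc, iron and related divalent metals into the cytoplasm. Several ZIP genes of Arabidopsis are induced when zinc is short, ZIP9 among them. NRT2.5 is a high-affinity nitrate transporter, known as a gene of nitrogen-starved plants, and the larger NRT1/PTR family (NPF) carries nitrate, peptides, hormones and glucosinolates.

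Array medians lay between 35.9 and 38.5 on the linear scale of the deposited signal. With 3 arrays per line, precision is limited throughout by their number. The ratio of the 3′ to the 5′ GAPDH control probe sets, a sign of RNA integrity and labelling, was 1.73 to 1.98 in iae2, below the 2.32 to 2.48 of iae1 and the 2.27 to 3.11 of B1798. Of 24 leaf and cotyledon markers, 2 were found, with a summed signal of 5265.3 to 5494.7 in iae1, 5749.1 to 6934.1 in iae2 and 5289.3 to 6169.7 in B1798. LHCB4.2, a light-harvesting protein, was called higher in iae2 than in B1798 (log2 difference 0.59 ± 0.09 SE, limma adjusted p = 0.000188). The brighter leaf marker LHCB4.1 had a difference of the opposite sign that was not called (-0.16 ± 0.09, adjusted p = 0.265). Of 18 root markers, 3 were found, with sums of 3922.3 to 4167.8 in iae1, 3287.1 to 3670.2 in iae2 and 3984.4 to 4459.9 in B1798, led by the beta-glucosidase PYK10. PYK10 was called lower in iae2 than in B1798 (log2 difference -0.33 ± 0.08, limma adjusted p = 0.00898). The other root markers, the root hair expansins EXPA7 and EXPA18, had differences of the opposite sign, 0.31 ± 0.14 (limma adjusted p = 0.135) and 0.29 ± 0.11 (adjusted p = 0.0716), which were not called although all their iae2 arrays were above all their B1798 arrays. The root list thus did not move one way. Of 13 meristem markers 3 were found, with sums of 40.7 to 49.4 in iae1, 35.7 to 54.6 in iae2 and 34.3 to 45.4 in B1798. LAS passed the filter, and CLV3 and UFO did not. The other meristem markers were not found by name, so the markers do not show how far the meristem bud is represented. Of 20 seed markers only OLEO3 was found, below the filter at 13.8 to 22.5, and none of 8 flower markers was found. No marker that was found was at 0 on all arrays. What part these differences have in the results below was not tested. A fit with the GAPDH ratio is given with the called genes. Since no iae2 ratio reaches those of the other lines, ratio and line cannot be told apart in comparisons with iae2.

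ZIP6 (AT2G30080) was measured at or above the filter on all 9 arrays and did not differ between the lines beyond the spread of their arrays. Its signal was 45.2, 31.6 and 38.3 on the iae1 arrays, 45.6, 33.1 and 40.9 on the iae2 arrays, and 35.9, 32.8 and 54.4 on the B1798 arrays. The means were 38.4 ± 6.80 in iae1, 39.9 ± 6.31 in iae2 and 41.0 ± 11.7 in B1798 (SD, n = 3 arrays each). The 3 lines overlapped fully, and the highest value of the 9 was on replicate 3 of B1798. On its arrays the probe set ranked between the 46.5th and the 59.5th percentile, so it sat near the middle of what an array recorded.

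ZIP9 (AT4G33020) reached the filter on 4 of the 9 arrays and so lay just inside it. Its signal was 19.3, 20.3 and 25.4 in iae1, 20.8, 28.6 and 34.3 in iae2, and 25.2, 24.6 and 14.6 in B1798. The arrays at or above their level were replicates 2 and 3 of iae2 and replicates 1 and 2 of B1798. Every iae1 value lay below the level of its own array, which was 25.3, 23.9 and 26.0. The size of ZIP9 in iae1 therefore rests on signals below the filter. The means were 21.7 ± 3.27 in iae1, 27.9 ± 6.78 in iae2 and 21.5 ± 5.95 in B1798 (SD, n = 3 arrays each). Values of 28.6 and 34.3, both in iae2, were the highest of the 9, yet the remaining iae2 array was below both of the higher B1798 arrays, so the lines overlapped. Replicate 3 of B1798, the highest array for ZIP6, was the lowest for ZIP9.

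NRT2.5 (AT1G12940) reached the filter on 0 of 9 arrays and was not tested. Its signal was 16.4, 19.6 and 20.0 in iae1, 23.9, 17.5 and 20.7 in iae2, and 16.7, 13.6 and 4.5 in B1798. Every iae2 array was above every B1798 array, and the iae1 arrays overlapped those of B1798 by 1 array. All 9 values lay below the filter level of their own array, which was 23.2 to 26.0 over the arrays, so the order of the lines rests on signals in the lowest 40% of each array. When the filter was dropped and the fit run over 22746 probe sets, the log2 difference of iae2 over B1798 was 0.44 ± 0.17 (SE), with an unadjusted p of 0.0266 and an adjusted p of 0.153 in limma. For iae1 over B1798 it was 0.36 ± 0.17, with an adjusted p of 0.333 in limma.

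**Figure D1:**
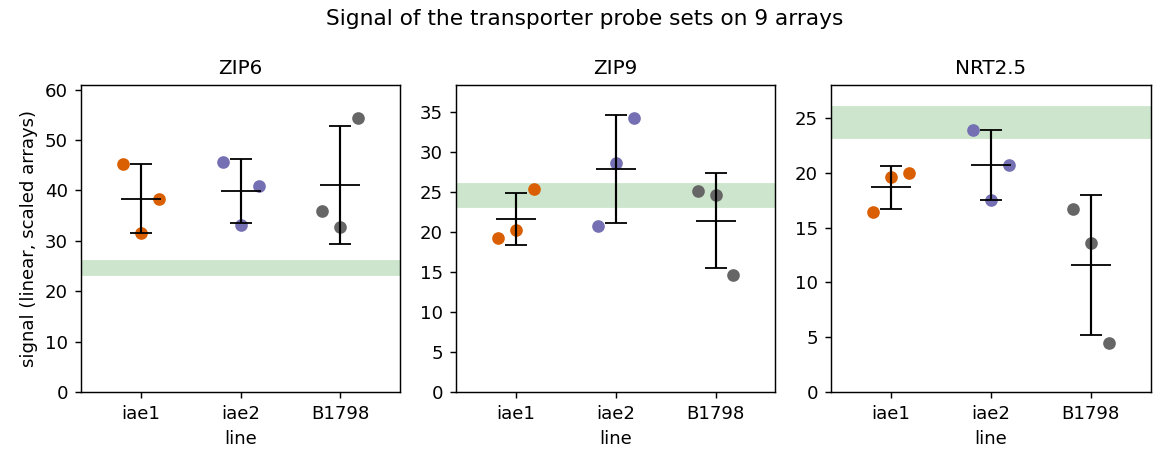
Signal on the linear scale of the deposited values for ZIP6, ZIP9 and NRT2.5 on each array of iae1, iae2 and B1798, with the mean and SD of the 3 arrays per line as horizontal bars and whiskers. The green band spans the filter levels of the 9 arrays, 23.2 to 26.0. ZIP6 lies above the band on all arrays, ZIP9 crosses it, and NRT2.5 lies below its own arrays' levels throughout.

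Differences between lines were taken on the scale log2(signal + 16), which understates the change of dim probe sets. The threshold for a call was a limma adjusted p of 0.05 over all 14404 tested. Between iae1 and B1798, 0 of the 2 ZIP genes were called, against 7.21% of all probe sets tested (3.8% higher and 3.42% lower), and 0 had an unadjusted p below 0.05, against 21.3%. Between iae2 and B1798, 0 of 2 were called against a background of 17.8% (9.77% higher and 7.99% lower), and 0 had an unadjusted p below 0.05, against 30.2%. Between iae1 and iae2, 0 of 2 were called against 19.6% (9.44% higher and 10.2% lower), again with 0 at an unadjusted p below 0.05, against 31.1%. The arrays of the lines overlapped for both ZIP genes in each comparison, while 24.7% of all probe sets had lines that did not overlap in iae1 against B1798, 33.3% in iae2 against B1798 and 35.8% in iae1 against iae2. With 2 genes, a count of 0 beside such backgrounds is no result about the members, and the intervals below carry the measurement.

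For ZIP6 the log2 difference was -0.06 in iae1 minus B1798, with a 95% interval from -0.38 to 0.26 and a limma adjusted p of 0.873. In iae2 minus B1798 it was -0.02, from -0.34 to 0.30, with an adjusted p of 0.957, and in iae1 minus iae2 it was -0.04, from -0.36 to 0.28, with an adjusted p of 0.896. All 3 estimates lay close to 0, and the intervals reach from -0.38 to 0.30 over the 3 comparisons.

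For ZIP9 the log2 difference was 0.02 in iae1 minus B1798, with a 95% interval from -0.32 to 0.36 and a limma adjusted p of 0.968. In iae2 minus B1798 it was 0.23, from -0.11 to 0.57, with an adjusted p of 0.365. In iae1 minus iae2 it was -0.21, from -0.55 to 0.13, with an adjusted p of 0.405. The larger estimates both involve iae2, and neither interval excludes 0.

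Both ZIP genes were measured less precisely than the usual probe set. The SD within lines on the log2 scale was 0.22 for ZIP6 and 0.20 for ZIP9, against a median of 0.13 over all probe sets tested. The median standard error of their differences was 0.16, against 0.11 over all. Their median log2 difference was -0.02 in iae1 minus B1798, 0.11 in iae2 minus B1798 and -0.13 in iae1 minus iae2, where the medians over all probe sets were 0.01, 0.00 and 0.00. In a simulation of the comparison of iae1 with B1798 on 14404 probe sets, 55 of 100 changes of 0.5 and 92 of 100 changes of 1 on the log2 scale were called. The changed probe sets were drawn from all those tested, so these shares do not hold for the ZIP genes, which scatter more.

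The gene table ties 11 further probe sets to the nitrate transporter family through a synonym of the NRT1/PTR form, although their symbols do not begin with a searched prefix. These were added after their values had been seen. AT1G33440 and AT3G25280 fell below the filter, at 12.9 to 20.5 and 6.4 to 23.5, and the other 9 were tested. The number called was 0 of 9 for iae1 against B1798, where 7.21% of all probe sets were called. At an unadjusted p below 0.05 in limma there were 3 of 9 for iae1 against B1798 (21.3% of all probe sets), 2 of 9 for iae2 against B1798 (30.2%) and 3 of 9 for iae1 against iae2 (31.1%). The number called was 1 of 9, a lower gene, for iae2 against B1798, where 7.99% of all probe sets were lower, and 1 of 9, lower in iae1, for iae1 against iae2, where 10.2% were called lower. The median log2 difference of the 9 was -0.05, -0.13 and 0.10 in these comparisons.

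GTR2 (NPF2.11, AT5G62680) and its paralogue GTR1 (NPF2.10, AT3G47960) import glucosinolates into cells, the first step of loading these defence compounds into the phloem. GTR2 gave 61.4, 76.3 and 75.5 in iae1, 100.2, 101.4 and 101.7 in iae2, and 103.9, 90.3 and 75.5 in B1798. All iae1 arrays were below all iae2 arrays, and both lines overlapped B1798. The difference of iae1 minus iae2 was -0.43 ± 0.11 (SE, limma adjusted p = 0.0111), and without replicate 1 of iae1 the adjusted p was 0.0554. GTR2 was not called in iae1 minus B1798, at -0.28 ± 0.11 (adjusted p = 0.149 in limma), or in iae2 minus B1798, at 0.15 ± 0.11 (adjusted p = 0.38). GTR1 gave 93.9, 96.2 and 86.1 in iae1, 84.4, 80.2 and 84.7 in iae2, and 94.7, 96.3 and 111.7 in B1798. Its iae2 arrays were all below its B1798 arrays, with a log2 difference of -0.24 ± 0.09 that was not called (limma adjusted p = 0.0914). The only call on either gene was that of GTR2 between iae1 and iae2.

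AT1G68570 (NPF3.1), which carries gibberellins and nitrite, gave 107.6, 95.6 and 99.4 in iae1, 85.6, 82.4 and 85.6 in iae2, and 106.6, 103.8 and 105.2 in B1798. The iae2 arrays were below all 6 others. The difference of iae2 minus B1798 was -0.27 ± 0.08 (SE, limma adjusted p = 0.037). It was no longer called without any 1 of replicates 1, 2 and 3 of iae2 or replicates 1, 2 and 3 of B1798, with adjusted p up to 0.106. The difference of iae1 minus iae2, 0.22 ± 0.08, was not called (limma adjusted p = 0.088).

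AT2G26690 (NPF6.2), a nitrate transporter of the petiole, gave 473.2, 419.8 and 518.5 in iae1, 510.2, 576.7 and 490.4 in iae2, and 580.2, 553.1 and 591.5 in B1798. All iae1 arrays were below all B1798 arrays, and the log2 difference was -0.29 ± 0.09 (SE, limma adjusted p = 0.0621), not called with all arrays and called without replicate 3 of iae1 (adjusted p = 0.0434). AT3G21670 (NPF6.4) gave 302.7, 331.8 and 319.3 in iae1, 417.5, 329.6 and 402.5 in iae2, and 421.7, 352.4 and 344.6 in B1798. Its difference of iae1 minus iae2, -0.25 ± 0.10, was not called (limma adjusted p = 0.0877), and it was called without replicate 2 of iae2 (adjusted p = 0.0239), the iae2 array that overlaps iae1. With the GAPDH ratio as a covariate this difference was -0.03 ± 0.14 (limma adjusted p = 0.938). The remaining 4 genes were not called in any comparison. They were AT3G25260 (NPF4.1) and AT1G27040 (NPF4.5), whose proteins imported abscisic acid when made in yeast, AT1G59740 (NPF4.3) and AT1G72125 (NPF5.13). Their largest log2 difference was the 0.25 ± 0.12 of AT1G72125 in iae1 minus iae2.

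**Figure D2:**
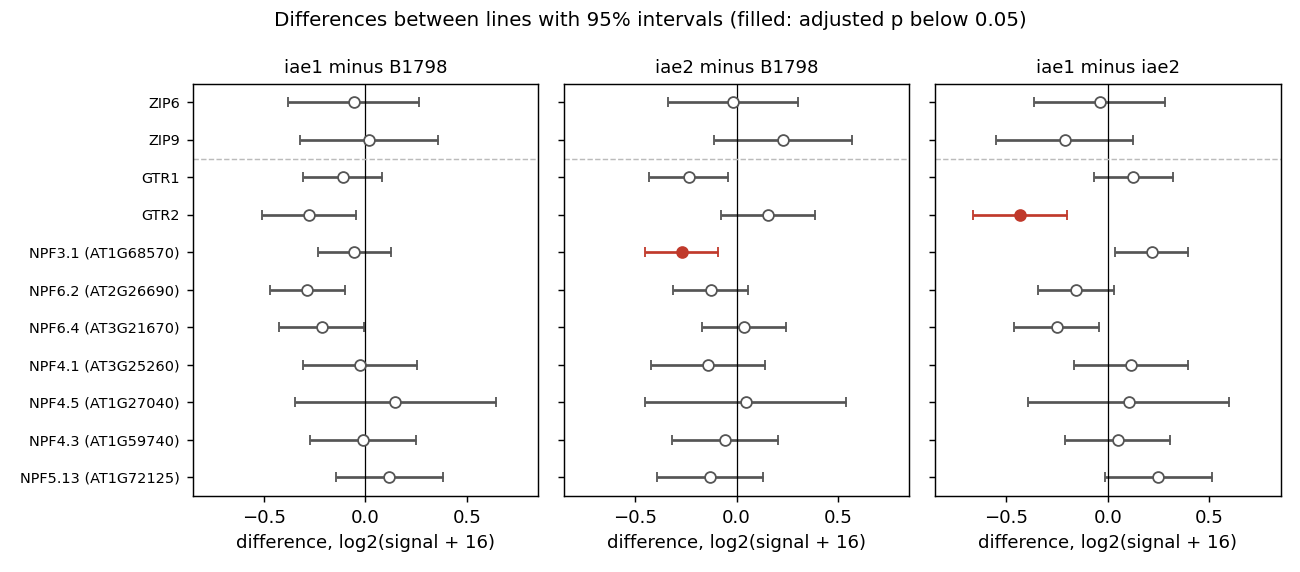
Log2 differences with 95% intervals for ZIP6 and ZIP9 (above the dashed line) and the 9 tested NRT1/PTR genes, in iae1 minus B1798, iae2 minus B1798 and iae1 minus iae2. Filled red points were called at a limma adjusted p below 0.05, which holds for GTR2 in iae1 minus iae2 (-0.43) and NPF3.1 in iae2 minus B1798 (-0.27). Every interval of the ZIP genes spans 0.

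The genes around these carriers were read from 12 fixed lists of transport and nutrient genes. In 7 of the lists no gene was found by name, namely nitrogen assimilation, phosphate starvation, other amino acid and peptide transporters, other aquaporins, auxin carriers, calcium pumps and ABC transporters under older names. The other 5 lists had 21 tested genes in all.

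Of 43 metal homeostasis genes outside the member families, 4 were found and 2 were tested. MTP11, a manganese carrier of the Golgi and a route of manganese tolerance, gave 95.1, 103.3 and 97.9 in iae1, 155.0, 136.8 and 139.5 in iae2, and 88.7, 80.2 and 84.4 in B1798. The 3 lines did not overlap, and iae2 stood highest. MTP11 was called higher in iae2 than in B1798, at 0.67 ± 0.09 (SE, limma adjusted p = 5.38e-05), and lower in iae1 than in iae2, at -0.48 ± 0.09 (adjusted p = 0.00104). The difference of iae1 minus B1798 was 0.19 ± 0.09 and was not called (adjusted p = 0.21). PYE, a regulator of the response to iron shortage, was not called in any comparison, with differences of -0.13, -0.16 and 0.03. MTPA1 (0.9 to 6.3) and NRAMP5 (4.2 to 18.7) fell below the filter. Of the metal genes found by name and tested, MTP11 alone was therefore called, in both comparisons that hold iae2. The difference between its changes and those of ZIP6 and ZIP9 was not tested.

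Proton pumps energise many of these carriers. Of 21 pump genes outside AHA, 3 were found, all a subunits of the vacuolar ATPase. VHA-A2, a subunit at the vacuolar membrane, gave 136.7, 132.0 and 158.5 in iae1, 192.6, 273.2 and 227.5 in iae2, and 161.5, 151.9 and 176.4 in B1798. All iae2 arrays were above all others. It was called higher in iae2 than in B1798, at 0.45 ± 0.11 (SE, limma adjusted p = 0.00978), and lower in iae1 than in iae2, at -0.63 ± 0.11 (adjusted p = 0.000804). Without replicate 2 of iae2, its highest array, the adjusted p against B1798 was 0.0558. VHA-A1 of the trans-Golgi network differed by 0.00, -0.12 and 0.12 in iae1 minus B1798, iae2 minus B1798 and iae1 minus iae2. VHA-A3, the other vacuolar a subunit, differed by -0.15, -0.14 and -0.01, and neither of these 2 genes was called.

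Of 45 genes of ion channels and exchangers, 4 were found and 2 tested. CHX20, a cation/proton exchanger of guard cells, gave 41.0, 39.4 and 31.7 in iae1, 32.3, 23.3 and 30.4 in iae2, and 49.1, 48.6 and 44.2 in B1798. All B1798 arrays were above those of the other lines, and CHX20 was called lower in iae2 than in B1798, at -0.51 ± 0.12 (SE, limma adjusted p = 0.00886). CHX20 reached the filter on 8 arrays, and its 23.3 on replicate 2 of iae2 lay below that array's level of 25.3. The difference of iae1 minus B1798, -0.25 ± 0.12, was not called (adjusted p = 0.261). GLR3.3, a glutamate receptor-like channel of wound signalling, was not called, with differences of -0.08, -0.17 and 0.09.

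Of 32 genes of sugar export and sucrose metabolism, 12 were found and 11 tested, most of them SWEET carriers, which let sugars out of cells or into the vacuole along their gradient. The counts called were 1 lower for iae1 against B1798 (3.42% of all probe sets were called lower), 3 lower for iae2 against B1798 (7.99% called lower overall) and 4 higher for iae1 against iae2 (9.44% called higher overall). The median log2 differences were -0.07, -0.28 and 0.04.

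SWEET2, a glucose carrier of the vacuolar membrane, gave 91.0, 75.9 and 69.6 in iae1, 45.2, 41.9 and 42.9 in iae2, and 59.6, 59.5 and 60.1 in B1798. The 3 lines did not overlap, with iae1 highest and iae2 lowest. SWEET2 was higher in iae1 than in iae2, at 0.67 ± 0.10 (SE, limma adjusted p = 0.000279), and lower in iae2 than in B1798, at -0.35 ± 0.10 (adjusted p = 0.0278). The call against B1798 was lost without any 1 of replicates 1, 2 and 3 of iae2 or of B1798, with adjusted p up to 0.084. In iae1 minus B1798 the difference was 0.32 ± 0.10 and was not called (adjusted p = 0.0791).

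SWEET1, a glucose carrier of the plasma membrane, gave 156.2, 172.1 and 164.3 in iae1, 128.1, 148.1 and 115.9 in iae2, and 172.2, 190.0 and 193.0 in B1798. SAG29 (SWEET15), a sucrose carrier known from senescing leaves and seeds, gave 45.7, 52.2 and 58.1 in iae1, 37.2, 20.0 and 37.4 in iae2, and 52.2, 63.7 and 74.3 in B1798. Both genes had every iae2 array below every array of the other lines. SAG29 reached the filter on 8 arrays, and its 20.0 on replicate 2 of iae2 lay below that array's level of 25.3. SWEET1 was lower in iae2 than in B1798 by a log2 difference of -0.46 ± 0.09 (SE, limma adjusted p = 0.00245), and SAG29 by -0.75 ± 0.15 (adjusted p = 0.00283). In iae1 minus iae2 the differences were 0.30 ± 0.09 for SWEET1 (limma adjusted p = 0.0314) and 0.54 ± 0.15 for SAG29 (adjusted p = 0.0231). The SWEET1 call was lost without replicate 2 or 3 of iae1 or replicate 1 or 3 of iae2 (adjusted p up to 0.139), and the SAG29 call without replicate 2 or 3 of iae1 or replicate 2 of iae2 (up to 0.117).

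SWEET11, which exports sucrose for phloem loading, gave 476.9, 421.0 and 432.9 in iae1, 473.6, 515.3 and 457.5 in iae2, and 497.5, 634.9 and 643.2 in B1798. All iae1 arrays were below all B1798 arrays, and the difference was -0.40 ± 0.10 (SE, limma adjusted p = 0.02). It was not called without replicate 2 or 3 of iae1 or replicate 2 or 3 of B1798, with adjusted p up to 0.0939. In iae2 minus B1798 the difference was -0.28 ± 0.10 and was not called (adjusted p = 0.0573), but without replicate 1 of B1798 it was (adjusted p = 0.00534). With the GAPDH ratio as a covariate the sign turned, to 0.09 ± 0.17 (limma adjusted p = 0.87). SWEET10, another sucrose carrier, gave 34.0, 27.6 and 41.8 in iae1, 17.0, 25.2 and 18.6 in iae2, and 36.8, 31.8 and 24.3 in B1798. Its iae1 arrays were all above its iae2 arrays, and B1798 overlapped both. SWEET10 reached the filter on 5 arrays, which included every iae1 array and no iae2 array. Its iae2 values lay below the filter levels of their own arrays, which were 24.8, 25.3 and 24.5. SWEET10 thus entered the test through arrays of iae1 and B1798, and its size in iae2 rests on signals below the filter. With this limit, SWEET10 was the fourth gene called higher in iae1 than in iae2, at 0.47 ± 0.15 (limma adjusted p = 0.0367). The call was lost without replicate 1 or 3 of either line (adjusted p up to 0.152), and the counts of calls include it. The 6 other tested genes of the list, SWEET16, SWEET17, SFP1, SFP2, TMT1 and TMT2, were not called.

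Of 22 sulfate assimilation genes, 3 were found and tested. APS3, an ATP sulfurylase, gave 130.2, 133.2 and 105.7 in iae1, 171.6, 146.8 and 150.6 in iae2, and 146.0, 133.5 and 150.8 in B1798. It was called lower in iae1 than in iae2, at -0.31 ± 0.10 (SE, limma adjusted p = 0.0345), and the call was lost without replicate 3 of iae1 or replicate 1 or 3 of iae2 (adjusted p up to 0.163). Another ATP sulfurylase, APS4, and the sulfite reductase SIR were not called. The difference of SIR was 0.24 ± 0.09 in iae1 minus iae2 (limma adjusted p = 0.0748), and without replicate 1 of iae2 it was called (adjusted p = 0.0205).

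The lists and the NRT1/PTR genes held 30 tested genes and gave 16 calls in 90 tests, on 11 genes. No share over all probe sets was taken for these pooled counts. By comparison, 1 of 30 genes (3.33%) was called for iae1 against B1798, where 7.21% of all probe sets were, 7 of 30 (23.3%) for iae2 against B1798, where 17.8% were, and 8 of 30 (26.7%) for iae1 against iae2, where 19.6% were. These shares describe the genes found by name and set them apart from the other probe sets by no test. The ratio of the GAPDH probe sets, which is lower in iae2 as given above, moves with the lines, and the calls were refitted with it as a covariate. In comparisons with iae2 this fit cannot tell the ratio from the line, because the iae2 ratios do not overlap the others. Of the 16, 2 were then called, SWEET2 in iae1 minus iae2 (log2 difference 0.65 ± 0.17, limma adjusted p = 0.0319) and VHA-A2 in iae1 minus iae2 (-0.72 ± 0.18, adjusted p = 0.0276), and 14 were not. Standard errors of the 16 differences were 0.0841 to 0.155 without the covariate and 0.0935 to 0.318 with it. MTP11 differed by 0.54 ± 0.18 in iae2 minus B1798 with the covariate (adjusted p = 0.142), GTR2 by -0.17 ± 0.16 in iae1 minus iae2 (adjusted p = 0.594) and NPF3.1 by -0.29 ± 0.18 in iae2 minus B1798 (adjusted p = 0.474). Several differences that lost their call had about the same or a larger size with the covariate. These were NPF3.1 as just given, CHX20 (-0.58 ± 0.26) and VHA-A2 (0.58 ± 0.24) in iae2 minus B1798, and SWEET10 (0.75 ± 0.23) and APS3 (-0.32 ± 0.16) in iae1 minus iae2. Others that lost their call were smaller with the covariate, GTR2 and MTP11 among them. In iae2 minus B1798, SAG29 was -0.44 ± 0.32, SWEET1 was -0.34 ± 0.19 and SWEET2, only slightly smaller than without the covariate, was -0.32 ± 0.22. In iae1 minus iae2, SAG29 was 0.32 ± 0.25, SWEET1 was 0.22 ± 0.15 and MTP11 was -0.39 ± 0.14. SWEET11 in iae1 minus B1798 was -0.29 ± 0.09. The covariate fit also added 2 calls, both on SFP1, a sugar transporter of the ERD6 group. SFP1 differed by -0.48 ± 0.11 in iae1 minus B1798 (limma adjusted p = 0.0205) and -0.998 ± 0.196 in iae2 minus B1798 (adjusted p = 0.0133). Over replicates 1, 2 and 3 of B1798 its signal fell from 613.1 to 452.8 and 364.1, while the ratio rose from 2.27 to 2.80 and 3.11. The iae2 ratios lie outside that range, so the iae2 difference extends the fitted slope beyond the B1798 arrays.

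**Figure D3:**
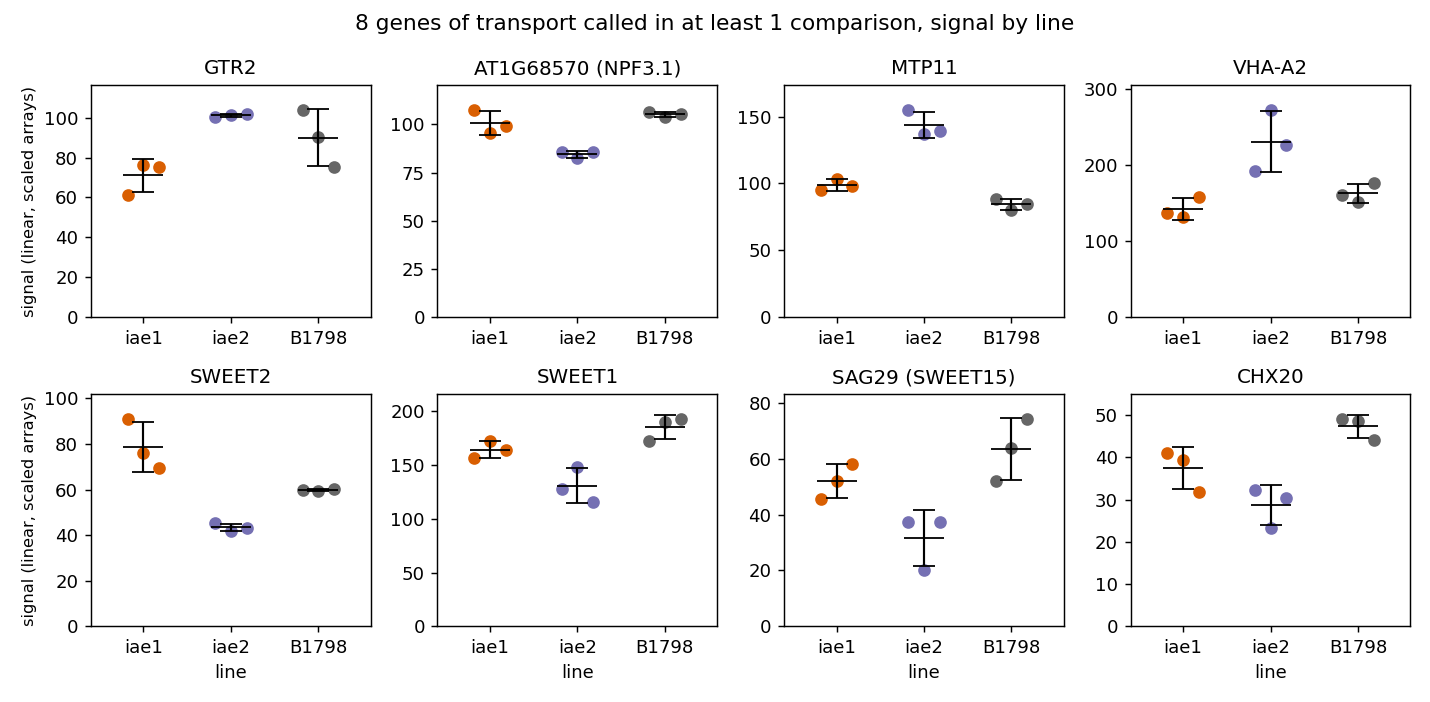
Signal on the linear scale of the deposited values for 8 genes called in at least 1 comparison, on each array of iae1, iae2 and B1798, with the mean and SD of the 3 arrays per line as horizontal bars and whiskers. MTP11 and VHA-A2 are highest in iae2 (136.8 to 155.0 and 192.6 to 273.2), and SWEET1, SWEET2 and SAG29 are lowest there. SWEET10, SWEET11 and APS3, which were also called, are not drawn.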

How the data were processed

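RNA of 3 lines was hybridised to ATH1 arrays, 3 per line. The values are the intensity signals deposited by the authors, on a linear scale, while the summarising algorithm is not given in the sources used here. After trimming 2% at each end the mean was 100 on every array, so the arrays had been scaled before deposition. The 64 control probe sets were left out. Values were used as log2(signal + 16) without further normalization, and limma 3.58.1 in R 4.3.3 fitted a mean per line to all 9 arrays with an intensity trend. Tests were two-sided, with Benjamini-Hochberg adjustment over 14404 probe sets in the main fit. Adjusted p values given for another setting, such as an array left out, a block, a covariate or another filter, come from limma refits with that change. Those of NRT2.5 were adjusted over 22746 probe sets. Figures were drawn with matplotlib 3.10.9 in Python 3.11.15. In the simulation, 4 unchanged probe sets were called.

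The members, lists and tests were chosen with earlier results of these data known. The rule for named genes took all members with those just inside and outside the filter, and of each list up to 3 called genes per comparison or else its brightest gene. The NRT1/PTR genes, SWEET10 and the uncalled genes of a list fall outside it and were named after their values were seen. Genes that share a listed symbol but are not the gene meant (those matched by BAT1 and APK1) were left out of the lists. No coordinates are given because the array files and labels name no genome build, and no sequence was used here.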

Additional observations from a re-analysis of the deposited data

How the results depend on the processing

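The count of called ZIP genes was 0 in every comparison under every alternative run with members taken by symbol. These were pseudocounts of 4 and 64, a floor, equal medians, quantile normalization, no filter or a stricter one, no intensity trend, array weights, 2 lines only, the GAPDH ratio as covariate, an adjusted p of 0.01, and leaving out each array. Over 129 such values for ZIP6 and ZIP9 the limma adjusted p ranged from 0.212 to 0.999, and the sign turned in 14. With members taken by symbol or synonym, chosen after seeing the data, the count was 0 for iae1 against B1798, 1 for iae2 against B1798 and 1 for iae1 against iae2, of 11 each. The NRT1/PTR count for iae2 against B1798 (1 as reported) was 0 with 2 lines only, 0 with the GAPDH covariate and 0 at an adjusted p of 0.01, and 0 to 1 when 1 array was left out. For iae1 against iae2 (1 as reported) it was 0 with the GAPDH covariate and 0 at 0.01, and 0 to 2 with 1 array left out (0 without replicate 1 of iae1, 2 without replicate 2 of iae2). For iae1 against B1798 (0 as reported) it was 0 to 1 with 1 array left out, 1 without replicate 3 of iae1. Apart from construction (fewer arrays, a stricter threshold), the cause was not tested.

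With replicate number as a block, 0 ZIP genes were called in each comparison, all-gene counts were 982, 2499 and 2745 against 1039, 2558 and 2825, and 1 of the 16 calls was lost (SWEET10, adjusted p = 0.0563). Deviations of same-numbered arrays correlated at -0.147 to 0.141, with 1 of 9 pairs over 0.1, so the numbers were not taken to pair samples.

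Of the 16 calls, 14 were lost with the GAPDH covariate (which added 2, on SFP1), 8 at 0.01 and 6 without the filter. Without the trend 3 were lost, with quantile normalization 1, and with 1 array left out 2 to 5. When the filter had to be met on all 9 arrays, 12 of the 16 were still tested, 0 of them were lost and 1 call was added. SAG29, CHX20 and SWEET10 were then no longer tested. All-gene counts moved by over 1.5 times with the covariate in iae2 against B1798 (393) and iae1 against iae2 (1102) but not in iae1 against B1798 (694), at 0.01 (443, 1443 and 1576), and for iae1 against B1798 without replicate 2 of B1798 (615) or replicate 3 of iae1 (650).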

Other observations

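Among transport genes below the filter, GLR2.7, a glutamate receptor-like channel, gave 8.2, 6.1 and 3.8 in iae1, 14.0, 10.3 and 13.4 in iae2, and 13.1, 17.3 and 8.9 in B1798, so its iae1 arrays lay below all others. CHX21 stayed between 1.0 and 3.7, and SWEET4 between 12.8 and 25.2 with 1 array at its filter level. None of these was tested.

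SWEET16, a fructose carrier of the vacuolar membrane, gave 73.3, 125.5 and 76.6 in iae1, 135.1, 118.8 and 144.5 in iae2, and 125.2, 75.7 and 78.8 in B1798. One array of iae1 (replicate 2) and one of B1798 (replicate 1) stood with iae2. The log2 difference of iae2 minus B1798 was 0.47 ± 0.17 (SE, limma adjusted p = 0.076), and without replicate 1 of B1798 or replicate 2 of iae1 it was called, with an adjusted p as low as 0.0115. With the GAPDH ratio as a covariate this difference was -0.02 ± 0.345 (limma adjusted p = 0.985). SFP1 gave 377.1, 388.7 and 379.6 in iae1, 369.8, 337.6 and 392.9 in iae2, and 613.1, 452.8 and 364.1 in B1798. Without replicate 3 of B1798 it was called lower than in B1798 both for iae1 (adjusted p = 0.0305) and for iae2 (adjusted p = 0.00659). With all arrays the limma adjusted p was 0.235 for iae1 and 0.0928 for iae2.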
